A study of Mus musculus with 8 samples.

Results

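Megakaryocytes are the large bone marrow cells that shed platelets, and 10 of their characteristic genes were followed here in mouse hematopoietic stem cells (HSC) with and without the ubiquitin ligase Huwe1. The genes were Vwf, Mmrn1, Thbs1, Pf4, F2rl2, Itga2b, Itgb3, Gp1bb, Gp5 and Gp9. They were taken by name, as genes that mark platelet-biased stem cells, from a count table of 23358 genes, and each had counts and passed the filter on low values. The libraries were made from uncultured bone marrow cells of the Lin-Sca+Kit+CD48-CD150+ gate. The 2 Vav-Cre libraries came from mice in which Huwe1 was deleted constitutively by the Vav-Cre recombinase, which is active in blood cells from early development. The 3 Mx1-Cre libraries came from mice in which an interferon-responsive promoter drives the recombinase and deletion was induced. The 3 wild type libraries are labelled Huwe1 wild type. The labels name no recombinase or inducing agent for wild type, list no treatment for any sample, and give no age. They do not state whether each library is a separate animal, so the p-values below measure the spread between libraries, which may be technical.

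A fraction of HSC is primed towards platelets and carries transcripts of the megakaryocyte lineage before any megakaryocyte forms; in mice a Vwf reporter marks these cells. The encoded proteins fall into adhesive and granule proteins, which platelets store and release, and surface receptors, which bind von Willebrand factor, fibrinogen or thrombin. Transcription of many of these genes in megakaryocytes depends on factors of the GATA, ETS and RUNX families. These are bulk libraries, so fewer cells of a primed type and less RNA per cell cannot be told apart.

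Total counts were 28689765 to 33202926 per library. Huwe1 itself had 445 and 490 CPM in Vav-Cre, 444, 399 and 412 CPM in Mx1-Cre, and 434, 398 and 433 CPM in wild type libraries. CPM are library-size normalised counts, scaled here by TMM, a correction for library composition. Both Vav-Cre libraries lay above all 6 others, at a log2 fold change against wild type of 0.15 ± 0.13 that did not pass (edgeR adjusted p = 0.682), and Mx1-Cre overlapped wild type. No knockout library was below the lowest wild type library. A count over the whole gene need not show a deletion of part of it, so this value does not check the labels, which are used as given. Why the level was not lower in knockout libraries was not tested. The biological coefficient of variation was 35.9% among Vav-Cre, 30.4% among Mx1-Cre and 21.1% among wild type libraries. Markers of mature cells differed between libraries. The summed level of 9 mature neutrophil genes was 10.1 and 274 CPM in Vav-Cre, 102 to 561 CPM in Mx1-Cre and 311 to 1125 CPM in wild type libraries. That of 9 mast cell and basophil genes was 17.8 and 235 CPM in Vav-Cre, 28.9 to 42.0 CPM in Mx1-Cre and 16.6 to 20.0 CPM in wild type libraries. Vav-Cre 2 was the library with 235 CPM, of which Fcer1a, the IgE receptor chain, made up 209 CPM. Of the 5 genes of this list tested, 2 had a positive and 3 a negative log2 fold change in each line. The median was -1.33 in Vav-Cre and -0.58 in Mx1-Cre libraries, so the sum does not speak for the whole list. EdgeR called 2 of the 5 higher and 0 lower with the lines averaged, where 0.547% of tested genes were called higher. It called 1 higher in Vav-Cre, where 0.192% were, and 0 in Mx1-Cre libraries. Fcer1a and Cpa3 were higher in each knockout library than in any wild type library. Fcer1a had 2.00 CPM in Vav-Cre 1, 7.01 to 14.9 CPM in Mx1-Cre and at most 0.231 CPM in wild type libraries. Cpa3 averaged 19.7 CPM in Vav-Cre, 19.6 CPM in Mx1-Cre and 9.42 CPM in wild type libraries.

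A set of 8 genes typical of platelets and megakaryocytes, 3 of them among the 10 (Pf4, Itga2b and Gp9), summed to 295 and 462 CPM in Vav-Cre, 513 to 737 CPM in Mx1-Cre and 541 to 765 CPM in wild type libraries. The other 5 genes, Gp6, Ppbp, Tubb1, Treml1 and Gp1ba, summed to 41.3 and 44.7 CPM in Vav-Cre, 58.2 to 67.6 CPM in Mx1-Cre and 55.3 to 75.7 CPM in wild type libraries. Gp6, the platelet collagen receptor gene, had 0 counts in all 8 libraries. Ppbp, the platelet basic protein gene, had 7.44 to 14.3 CPM, and Tubb1, the platelet beta tubulin gene, had 0.930 to 3.43 CPM. Of the genes of the sorted antigens, Kit had 982 to 2344 CPM and Cd48 had 14.8 to 22.5 CPM. Ly6a, which encodes Sca-1, had 50.6 and 144 CPM in Vav-Cre, 45.1, 42.4 and 60.7 CPM in Mx1-Cre, and 75.5, 96.0 and 77.3 CPM in wild type libraries. All Mx1-Cre libraries and Vav-Cre 1 were below wild type there, and Vav-Cre 2 was above it. Slamf1, which encodes the sorted antigen CD150, had 105 and 108 CPM in Vav-Cre, 49.0, 53.6 and 58.1 CPM in Mx1-Cre, and 68.4, 62.8 and 67.3 CPM in wild type libraries. It was higher in Vav-Cre than in Mx1-Cre libraries (log2 difference 0.99 ± 0.14 SE, edgeR quasi-likelihood adjusted p = 0.0346), a call kept without Vav-Cre 1 and lost without any other library (0.0504 to 0.127). Of 12 genes of stem cell identity, Ly6a, Kit and Slamf1 among them, edgeR called 1 lower in Vav-Cre libraries, 3 lower in Mx1-Cre libraries and 1 lower with the lines averaged, and none higher. Their median log2 fold change was 0.18 in Vav-Cre libraries, -0.77 in Mx1-Cre libraries and -0.31 with the lines averaged, and in Mx1-Cre libraries 8 of the 12 lay below wild type without overlap, where 14.8% of tested genes did. For Vav-Cre minus Mx1-Cre, edgeR called 2 of the 12 higher, where 0.170% of tested genes were called in either direction. The difference was positive for 11 of the 12 (median 0.90). By edgeR 9 had an unadjusted p under 0.05, where 13.3% of tested genes did. Fgd5, a gene whose reporter marks stem cells in mice, had 17.2 and 15.2 CPM in Vav-Cre, 3.24, 4.06 and 1.70 CPM in Mx1-Cre, and 50.01, 59.1 and 59.4 CPM in wild type libraries. The part of these differences in the values below was not tested.

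In the GRCm38 annotation (GENCODE), 3 of the 10 genes lie on chromosome 6: Mmrn1 at chr6:60924976-60989378, Gp9 at chr6:87778072-87779768 and Vwf at chr6:125546774-125686679, all on the + strand. The integrin genes are on chromosome 11, Itga2b at chr11:102453297-102470122 on the - strand and Itgb3 at chr11:104608000-104670476 on the + strand. Chromosome 16 carries Gp1bb at chr16:18620317-18622403 and Gp5 at chr16:30307685-30310779, both on the - strand. Thbs1 is at chr2:118111876-118127133, Pf4 at chr5:90772435-90773383 and F2rl2 at chr13:95696853-95702739, all on the + strand. Of the exon bases of Gp1bb, 91.1% are also exon of Sept5 on the same strand, so how the authors' counting divided the reads of these 2 genes is uncertain. Thbs1 shares 3.43% of its exon bases with an antisense transcript, Gm29233, and the libraries carry no strand information.

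RefSeq promoter sequences of GRCm38.p6, from 250 bases before to 50 after the annotated start, were at hand for 7 of the 10 genes, not including Vwf, Thbs1 and Itgb3. GATA was searched as GATAA with A or T before it, and as GATAG with A or T before it. ETS was searched as GGAAG with A or C before it. RUNX was searched as TGTGGT and, in place of its second T, with C. All were searched on both strands. Matches of different families may overlap. The 4 promoters shown are those of F2rl2 and Mmrn1, which were lower in knockout libraries, and of Gp5 and Gp9, which were not called. Capitals mark GATA words, read on either strand.
F2rl2 promoter, chr13:95696670-95696969, + strand: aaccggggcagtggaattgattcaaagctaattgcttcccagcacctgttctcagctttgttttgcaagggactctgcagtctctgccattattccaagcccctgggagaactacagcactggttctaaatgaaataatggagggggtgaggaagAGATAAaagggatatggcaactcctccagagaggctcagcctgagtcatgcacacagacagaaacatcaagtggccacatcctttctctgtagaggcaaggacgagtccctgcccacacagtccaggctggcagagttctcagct
Mmrn1 promoter, chr6:60944067-60944366, + strand: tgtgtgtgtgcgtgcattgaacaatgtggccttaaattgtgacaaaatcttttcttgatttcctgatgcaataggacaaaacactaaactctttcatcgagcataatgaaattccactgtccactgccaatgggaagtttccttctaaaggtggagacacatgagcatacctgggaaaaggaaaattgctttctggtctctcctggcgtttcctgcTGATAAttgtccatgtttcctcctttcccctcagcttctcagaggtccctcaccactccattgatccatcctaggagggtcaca
Gp5 promoter, chr16:30310732-30311031, - strand: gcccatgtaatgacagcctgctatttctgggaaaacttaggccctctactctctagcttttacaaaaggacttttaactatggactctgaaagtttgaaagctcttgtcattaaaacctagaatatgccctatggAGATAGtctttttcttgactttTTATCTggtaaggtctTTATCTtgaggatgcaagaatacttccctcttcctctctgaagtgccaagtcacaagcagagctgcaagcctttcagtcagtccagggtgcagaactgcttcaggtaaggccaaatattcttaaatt
Gp9 promoter, chr6:87777820-87778119, + strand: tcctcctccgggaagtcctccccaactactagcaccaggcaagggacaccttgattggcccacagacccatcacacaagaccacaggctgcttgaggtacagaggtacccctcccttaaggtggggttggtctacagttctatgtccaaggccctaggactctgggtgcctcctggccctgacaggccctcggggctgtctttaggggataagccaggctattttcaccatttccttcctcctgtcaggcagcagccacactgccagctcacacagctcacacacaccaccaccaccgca
The start used for Mmrn1 lies inside the longer GENCODE gene. The F2rl2 promoter holds AGATAA beginning at position -95, next to an ETS word at -101, and the Mmrn1 promoter holds TGATAA at -34. Gp5 has 3 GATA words, at -115, -93 and -77, the last 2 of them on the - strand. Gp9 has none, with an ETS word at -16 and RUNX words at -171 and 45. Over the 7 promoters 5 held a GATA word, against 29.8% of 32851 promoters, 6 held an ETS word, against 46.5%, and 1 held a RUNX word, against 22.4%. A match describes these letters and shows no binding. Promoters with GATA words belonged to genes that were called lower (F2rl2, Mmrn1) and to genes that were not (Pf4, Gp1bb, Gp5).

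Per kilobase of exon, the 10 genes spanned a wide range of levels in wild type libraries. Pf4 was the most abundant, at a mean of 418 CPM per kb, followed by Mmrn1 at 93.3, Gp9 at 80.1 and Itga2b at 40.0 CPM per kb. F2rl2 (17.9), Itgb3 (12.3) and Vwf (11.9) came next. Gp5 (2.54), Thbs1 (1.71) and Gp1bb (0.636) were low, the last uncertain because most of its exon bases are shared with Sept5. The wild type libraries overlapped between Mmrn1 and Gp9, between Itgb3 and Vwf and between Gp5 and Thbs1, so these neighbours had no clear order. Exon lengths are those of GENCODE, not of the authors' annotation. In Vav-Cre libraries Pf4 had 135, Gp9 93.3 and Mmrn1 42.8 CPM per kb. In Mx1-Cre libraries Pf4 had 334, Gp9 93.3 and Itga2b 37.5 CPM per kb, with Mmrn1 at 31.3.

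**Figure D1:**
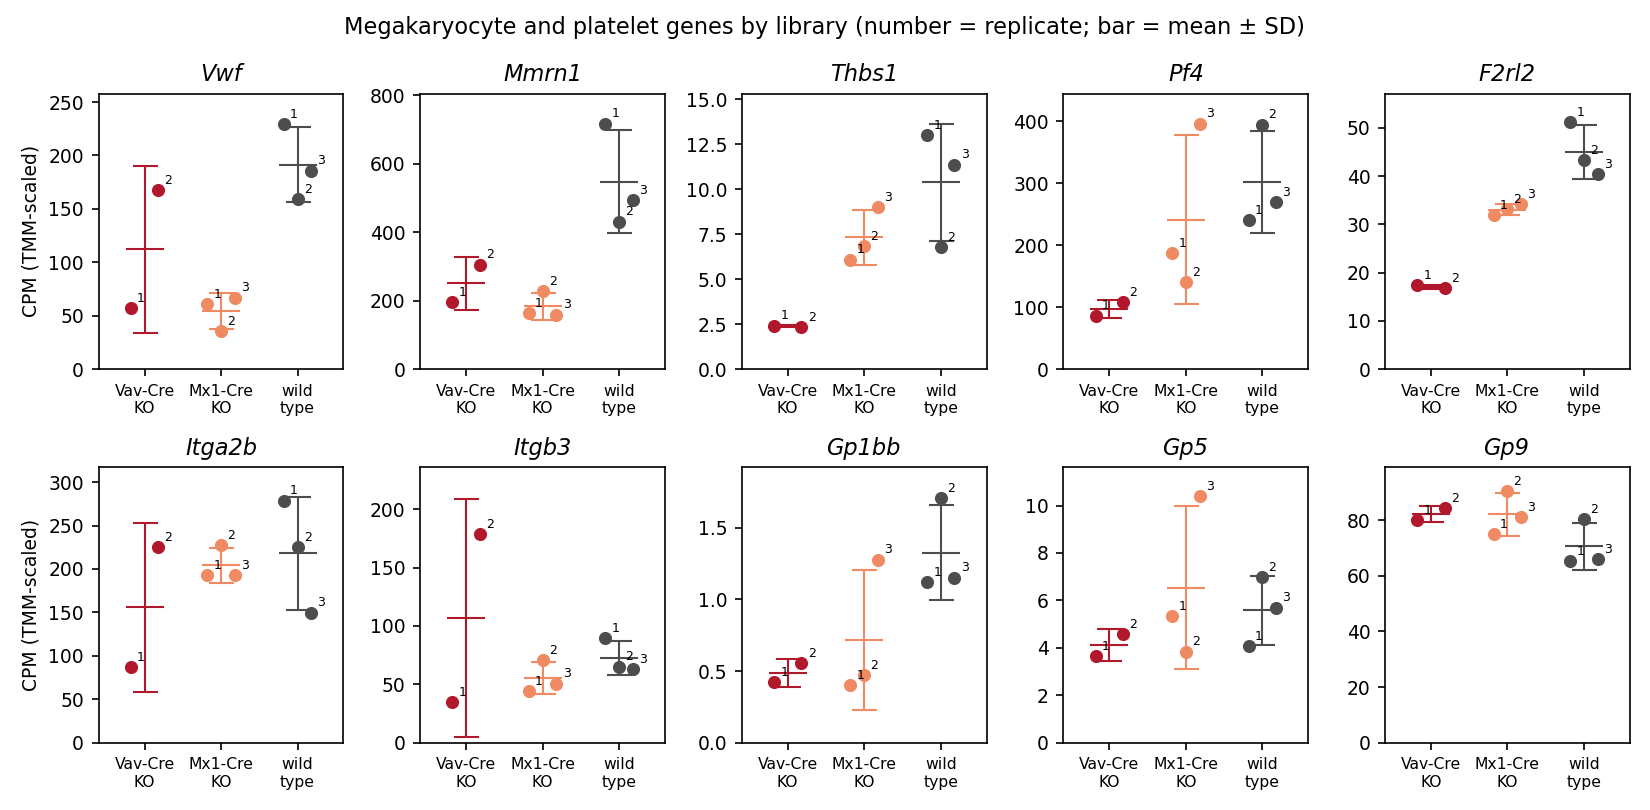
TMM-scaled CPM (vertical axes, linear, from 0, scaled per gene) of the 10 genes in 2 Vav-Cre, 3 Mx1-Cre and 3 wild type libraries, each point a library with its replicate number, bars mean ± SD. F2rl2 separates the 3 groups without overlap, a pattern not counted over all tested genes. Vav-Cre 2 stands far above Vav-Cre 1 for Vwf, Itga2b and Itgb3.

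Among the adhesive and granule proteins, transcripts of Vwf and Mmrn1 were low in Mx1-Cre libraries, and those of Thbs1 and Pf4 were lowest in Vav-Cre libraries. Vwf encodes von Willebrand factor, which tethers platelets to exposed collagen. It had 56.9 and 167 CPM in Vav-Cre, 60.7, 35.5 and 67.0 CPM in Mx1-Cre, and 229, 159 and 186 CPM in wild type libraries. All 3 Mx1-Cre libraries and Vav-Cre 1 lay far below wild type, while Vav-Cre 2 lay between the wild type values. Against wild type, Vwf fell in Mx1-Cre libraries (54.4 ± 16.7 against 191 ± 35.2 CPM, mean ± SD, n = 3 each; log2 fold change -1.81 ± 0.36 SE, edgeR adjusted p = 0.0297). For Vav-Cre the log2 fold change was -0.77, with a 95% interval of -1.66 to 0.12 (edgeR adjusted p = 0.439), and the lines averaged with equal weight gave -1.29 ± 0.31 (adjusted p = 0.0565). Without Vav-Cre 2 the averaged value was -1.78 (adjusted p = 0.0120). The Mx1-Cre call was lost when any 1 of the Mx1-Cre or wild type libraries was left out (edgeR adjusted p = 0.0615 to 0.0988), with log2 fold changes of -1.99 to -1.57.

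Mmrn1 encodes multimerin 1, a large alpha granule protein that binds coagulation factor V in human platelets. It had 196 and 306 CPM in Vav-Cre, 164, 228 and 159 CPM in Mx1-Cre, and 717, 431 and 494 CPM in wild type libraries. Every knockout library lay below every wild type library. The fall was called with the lines averaged (log2 fold change -1.35 ± 0.21, edgeR adjusted p = 0.0124) and in Mx1-Cre libraries (-1.58 ± 0.24, adjusted p = 0.0111). For Vav-Cre the log2 fold change was -1.13 ± 0.27 and did not pass (edgeR adjusted p = 0.101), although the groups did not overlap. The averaged call was lost without wild type 3 (adjusted p = 0.0556) and the Mx1-Cre call without Mx1-Cre 1 (adjusted p = 0.0612).

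Thbs1 encodes thrombospondin 1, a matricellular protein of the alpha granule. Its raw counts were low, 69 to 394 per library. It had 2.42 and 2.36 CPM in Vav-Cre, 6.08, 6.86 and 9.01 CPM in Mx1-Cre, and 13.01, 6.76 and 11.4 CPM in wild type libraries. The Vav-Cre libraries were below all the others, and Mx1-Cre overlapped wild type. Thbs1 fell in Vav-Cre libraries (log2 fold change -2.12 ± 0.37, 95% interval -2.93 to -1.30, edgeR adjusted p = 0.0376) and with the lines averaged (-1.31 ± 0.27, adjusted p = 0.0325). In Mx1-Cre libraries the log2 fold change was -0.50 ± 0.30 (edgeR adjusted p = 0.448). Both calls held without Mx1-Cre 2 or Mx1-Cre 3 and were lost without any other library. The edgeR adjusted p was then 0.0594 to 0.158 for the average and 0.0639 to 0.154 for Vav-Cre, where the log2 fold change stayed at -2.35 to -1.92.

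Pf4 encodes platelet factor 4, a chemokine released from alpha granules that keeps stem cells quiescent in mice. It had 86.6 and 108 CPM in Vav-Cre, 187, 140.0 and 396 CPM in Mx1-Cre, and 241, 395 and 269 CPM in wild type libraries. The Vav-Cre values lay below all 6 other libraries, and Mx1-Cre 3 was level with the highest wild type library. No comparison passed the edgeR test. The log2 fold change was -1.63 ± 0.40 in Vav-Cre libraries (95% interval -2.52 to -0.75, edgeR adjusted p = 0.105) and -0.32 ± 0.34 in Mx1-Cre libraries (adjusted p = 0.700). With the lines averaged it was -0.98 ± 0.30 (edgeR adjusted p = 0.129), or -1.26 without Mx1-Cre 3 (0.0148). Without Mx1-Cre 3 the Vav-Cre value was -1.63 with an edgeR adjusted p of 0.0259, and DESeq2 gave an adjusted p of 0.00043 with all libraries.

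Among the receptors, the thrombin receptor gene F2rl2 separated the 3 groups. It encodes protease-activated receptor 3, which on mouse platelets assists receptor 4 in responding to thrombin. F2rl2 had 17.4 and 16.8 CPM in Vav-Cre, 31.9, 33.1 and 34.2 CPM in Mx1-Cre, and 51.1, 43.3 and 40.3 CPM in wild type libraries. The 3 groups did not overlap, with Mx1-Cre libraries between Vav-Cre and wild type. The share of all tested genes that separate the 3 groups was not counted. F2rl2 fell in Vav-Cre libraries (17.1 ± 0.434, n = 2, against 44.9 ± 5.59 CPM, n = 3; log2 fold change -1.39 ± 0.18, edgeR adjusted p = 0.0154) and with the lines averaged (-0.92 ± 0.14, adjusted p = 0.0113). In Mx1-Cre libraries the log2 fold change was -0.44 ± 0.15 and did not pass (edgeR adjusted p = 0.174). The Vav-Cre call was lost without Vav-Cre 2 (adjusted p = 0.0767) or wild type 2 (0.0964), and the averaged call without wild type 2 (0.0783) or wild type 3 (0.0547).

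Itga2b and Itgb3 encode the alpha and beta chains of the platelet fibrinogen receptor, and neither passed the test in any comparison. Itga2b had 86.7 and 225 CPM in Vav-Cre, 193, 227 and 193 CPM in Mx1-Cre, and 279, 225 and 150 CPM in wild type libraries. The Mx1-Cre values all lay within the wild type range, and Vav-Cre 1 lay below it. Its log2 fold change was -0.48 ± 0.35 in Vav-Cre and -0.09 ± 0.31 in Mx1-Cre libraries. Itgb3 had 35.0 and 179 CPM in Vav-Cre, 44.5, 70.6 and 50.5 CPM in Mx1-Cre, and 89.7, 65.1 and 63.3 CPM in wild type libraries. Vav-Cre 1 was the lowest and Vav-Cre 2 the highest of the 8 libraries. The Vav-Cre log2 fold change of 0.56 ± 0.49 turned to -1.06 without Vav-Cre 2, so its direction rested on that library. Per kilobase, Itga2b stood above Itgb3 in every library, by a ratio of 2.68 and 1.36 in Vav-Cre, 4.69, 3.48 and 4.12 in Mx1-Cre, and 3.36, 3.74 and 2.56 in wild type libraries.

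Gp1bb, Gp5 and Gp9 encode chains of the GPIb-IX-V complex, the platelet receptor for von Willebrand factor, and none of them passed the test. Gp9 had 80.1 and 84.4 CPM in Vav-Cre, 75.0, 90.4 and 81.1 CPM in Mx1-Cre, and 65.4, 80.3 and 66.0 CPM in wild type libraries. It varied little between groups, with a log2 fold change of 0.22 ± 0.15 in Vav-Cre and 0.22 ± 0.14 in Mx1-Cre libraries. Gp5 had 3.64 and 4.59 CPM in Vav-Cre, 5.34, 3.85 and 10.4 CPM in Mx1-Cre, and 4.06, 6.99 and 5.69 CPM in wild type libraries, and the groups overlapped. Gp1bb had 12 and 18 counts in Vav-Cre, 13, 13 and 36 in Mx1-Cre, and 34, 52 and 37 in wild type libraries. The Vav-Cre libraries lay below all wild type libraries there, at a log2 fold change of -1.43 ± 0.75 that such counts leave imprecise. Gp1ba, which encodes the ligand-binding chain of the complex and is not among the 10, had 20.1 ± 1.19 CPM in Vav-Cre, 25.1 ± 3.42 CPM in Mx1-Cre and 35.8 ± 10.2 CPM in wild type libraries (SD, n = 2, 3 and 3). Its log2 fold change with the lines averaged was -0.67 and did not pass (edgeR adjusted p = 0.105).

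**Figure D2:**
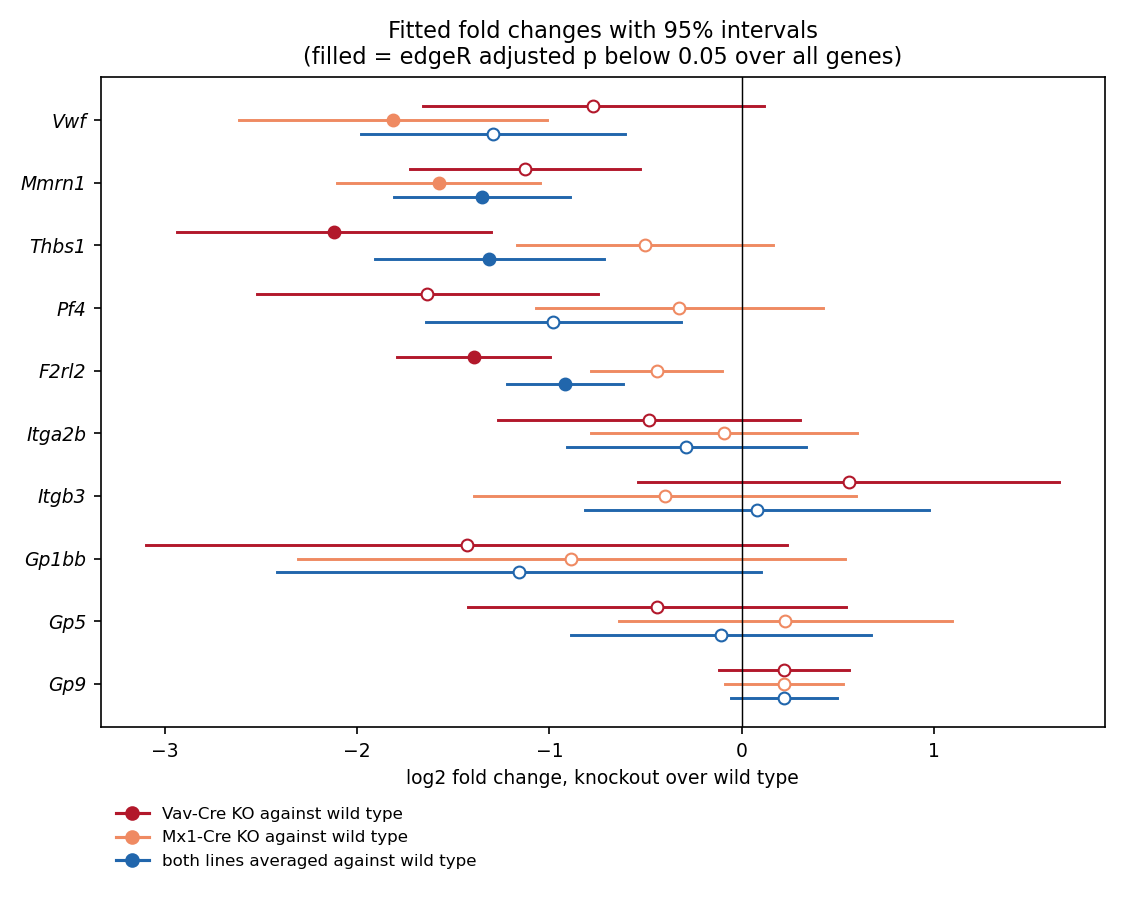
Fitted log2 fold change against wild type (horizontal axis) with its 95% interval for the 10 genes (rows), in Vav-Cre, in Mx1-Cre and with the lines averaged, filled where the edgeR adjusted p over all genes is below 0.05. Vwf and Mmrn1 are filled for Mx1-Cre, Thbs1 and F2rl2 for Vav-Cre, and the intervals of the integrin genes, Gp1bb, Gp5 and Gp9 span 0.

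With the lines averaged, 3 of the 10 genes were called lower (Mmrn1, Thbs1, F2rl2) and 0 higher, where 2.10% of the 14086 tested genes were called lower and 0.547% higher. In Mx1-Cre libraries 2 were called lower (Vwf, Mmrn1), where 2.10% of tested genes were, and 0 higher, where 0.390% were. In Vav-Cre libraries 2 were called lower (Thbs1, F2rl2), where 0.319% of tested genes were, and 0 higher, where 0.192% were. By edgeR at an unadjusted p under 0.05 the counts were 5, 3 and 4 of 10, in either direction, where 16.5%, 16.6% and 13.4% of tested genes had one. The median log2 fold change of the 10 was -0.95 in Vav-Cre libraries, -0.42 in Mx1-Cre libraries and -0.95 with the lines averaged, against medians of -0.01, 0.01 and 0.00 over all tested genes. These counts depended on single libraries: leaving out each in turn gave 0 to 3 calls in Vav-Cre (0 without Vav-Cre 2 or wild type 2), 0 to 2 in Mx1-Cre (0 without Mx1-Cre 1), and 0 to 4 with the lines averaged (1 without wild type 2 and 0 without wild type 3).

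Counted by range, 5 of the 10 genes lay lower in both Vav-Cre libraries than in any wild type library (Mmrn1, Thbs1, Pf4, F2rl2 and Gp1bb), where 17.1% of tested genes did. The Mx1-Cre libraries lay below wild type without overlap for 3 genes (Vwf, Mmrn1 and F2rl2), where 14.8% of tested genes did. All 5 knockout libraries lay below all wild type libraries for Mmrn1 and F2rl2, where 7.28% of tested genes did. None of the 10 lay higher without overlap in any of these comparisons, where 15.6% of tested genes did in Vav-Cre, 10.9% in Mx1-Cre and 4.41% in all 5 knockout libraries. Together the 10 genes summed to 565 and 1093 CPM in Vav-Cre, 768, 836 and 1002 CPM in Mx1-Cre, and 1690, 1415 and 1287 CPM in wild type libraries. Every knockout library was below every wild type library in that sum, which Mmrn1, Pf4, Vwf and Itga2b dominate. The separation rested on Mmrn1, without which Mx1-Cre 3 lies above wild type 3. How often sums of other genes separate in this way was not counted.

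**Figure D3:**
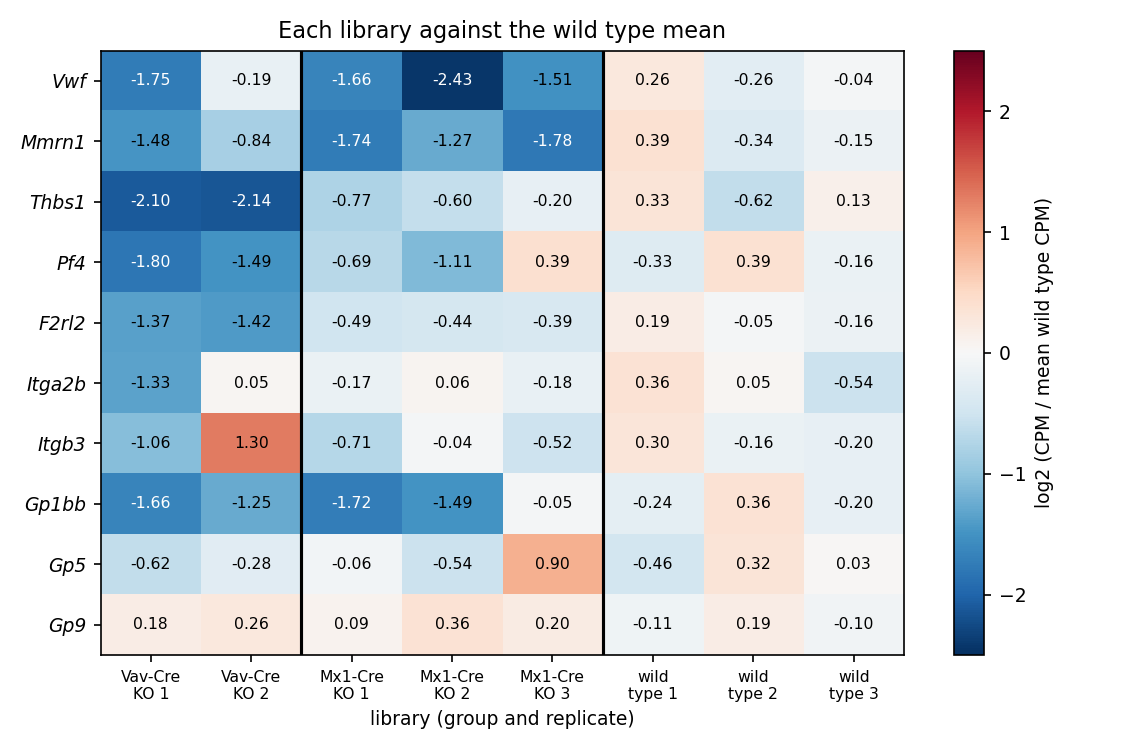
Log2 ratio of each library's TMM-scaled CPM to the wild type mean (colour and printed value) for the 10 genes (rows) in the 8 libraries (columns, Vav-Cre, Mx1-Cre and wild type from left to right). Vav-Cre 1 is below the mean for all genes but Gp9, Vav-Cre 2 is above it for Itgb3 at 1.30, and the Mx1-Cre libraries are at -1.27 or lower for Vwf and Mmrn1.

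To ask whether constitutive and induced deletion differed in these genes, the Vav-Cre libraries were set against the Mx1-Cre libraries. None of the 10 passed the test of this difference by edgeR, where 0.170% of tested genes did, and 4 had an unadjusted p under 0.05, where 13.3% of tested genes did. DESeq2 called 3, namely Thbs1, Pf4 and F2rl2, where it called 3.27% of the 14383 genes it tested. The log2 difference, Vav-Cre minus Mx1-Cre, was -0.95 ± 0.18 for F2rl2 (edgeR adjusted p = 0.0711), -1.61 ± 0.36 for Thbs1 (adjusted p = 0.133) and -1.31 ± 0.39 for Pf4 (adjusted p = 0.209). For Vwf it was 1.04 ± 0.39 (edgeR adjusted p = 0.289) and for Mmrn1 0.45 ± 0.26 (adjusted p = 0.493). For Gp9 it was 0.00, with a 95% interval of -0.34 to 0.34. Without Vav-Cre 1 the differences of Vwf (1.62, adjusted p = 0.0247) and Itgb3 (1.69, adjusted p = 0.0129) passed; the remaining Vav-Cre library was then assumed to vary like the other groups. Since the 2 contrasts against wild type share the same wild type libraries, their values are set side by side here and no agreement between them is computed.

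The 2 Vav-Cre libraries differed from each other in some of the 10 genes and not in others. Vav-Cre 2 over Vav-Cre 1 gave a ratio of 5.11 for Itgb3, 2.94 for Vwf and 2.59 for Itga2b, where the median over the 9583 genes of mean log2 CPM of at least 3 was 0.975. Ratios at least as high were seen in 0.303%, 0.741% and 0.918% of those genes. For Thbs1 and F2rl2 the ratio was 0.974 and 0.965, and for Gp9 1.05. In the same libraries Fcer1a had 2.00 CPM in Vav-Cre 1 and 209 CPM in Vav-Cre 2, the neutrophil granule gene Ngp had 2.66 and 128 CPM, and Ly6a had 50.6 and 144 CPM. The part of these in the ratios was not tested.

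A wider set of 120 genes of platelets and megakaryocytes was examined around the 10. They were chosen for their known roles, but with earlier results of these data known. All were in the table and 110 were tested. With the lines averaged 1 was called higher and 6 lower, in Mx1-Cre libraries 1 higher and 5 lower, and in Vav-Cre libraries 0 higher and 2 lower. Over all tested genes, too, lower calls outnumbered higher ones, by 296 to 77 with the lines averaged, 296 to 55 in Mx1-Cre and 45 to 27 in Vav-Cre libraries. As shares, the calls of both directions made up 6.36%, 5.45% and 1.82% of the 110. Over all tested genes 2.10%, 2.10% and 0.319% were called lower, and 0.547%, 0.390% and 0.192% higher. An edgeR unadjusted p under 0.05, in either direction, was found for 35, 27 and 30 of the 110. Over all tested genes 16.5%, 16.6% and 13.4% had one. The median log2 fold change of the set was 0.06 in Vav-Cre libraries, 0.05 in Mx1-Cre libraries and 0.05 with the lines averaged. These medians lay within 0.1 of those of all tested genes. In the test between the lines edgeR called 0 of the set, of which 21 were below 0.05 before adjustment, whereas 12 passed in DESeq2; the shares of all genes under these rules were the 13.3% and 3.27% above. Leaving out single libraries gave 0 to 10 calls with the lines averaged (3 without wild type 1, 0 without wild type 2 and 2 without wild type 3), 1 to 9 in Mx1-Cre (1 without Mx1-Cre 1 or any wild type library and 3 without Mx1-Cre 3) and 0 to 7 in Vav-Cre. In the last, 7 were called without Vav-Cre 1, 4 without Mx1-Cre 2 or Mx1-Cre 3, 1 without wild type 1 or wild type 3 and 0 without wild type 2.

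Of 25 platelet receptors and adhesion molecules, 21 were tested, and Jam3 and Esam were the genes called, both lower. Jam3, which encodes junctional adhesion molecule C, had 11.6 and 10.4 CPM in Vav-Cre, 5.50, 6.42 and 3.51 CPM in Mx1-Cre, and 20.4, 37.3 and 34.6 CPM in wild type libraries. Every knockout library lay below every wild type library. It fell in Mx1-Cre libraries (log2 fold change -2.58 ± 0.30, edgeR adjusted p = 0.0045), a call kept without each of the 8 libraries in turn. With the lines averaged it fell by 2.03 on the log2 scale (edgeR adjusted p = 0.00525, or 0.0545 without wild type 2). Esam, an adhesion molecule of platelets, endothelium and stem cells, fell in Mx1-Cre libraries (-0.79 ± 0.15, edgeR adjusted p = 0.0272), a call lost without Mx1-Cre 1 or 3 or any wild type library (0.0815 to 0.0888). The most abundant of this list, the integrin chain gene Itgb1 and the thrombospondin receptor gene Cd47, were not called, with averaged log2 fold changes of 0.18 and -0.01.

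Of 23 genes of alpha granule cargo and granule transport, 22 were tested, and the called Serpine2, Timp3 and Cd63 were all lower. Serpine2, which encodes the thrombin inhibitor protease nexin 1, had 3.43 and 3.16 CPM in Vav-Cre, 18.5, 11.7 and 14.1 CPM in Mx1-Cre, and 17.3, 30.5 and 14.1 CPM in wild type libraries. The Vav-Cre libraries were below all the others (log2 fold change -2.64 ± 0.38, edgeR adjusted p = 0.0269), a call lost without Vav-Cre 2 (0.116) or wild type 2 (0.0964). Its averaged log2 fold change was -1.56 (edgeR adjusted p = 0.0185, or 0.107 without wild type 2). Timp3, which encodes a metalloproteinase inhibitor, had 27.9 and 28.9 CPM in Vav-Cre, 40.0, 46.8 and 26.3 CPM in Mx1-Cre, and 84.9, 66.6 and 75.7 CPM in wild type libraries. It was lower in each knockout library, and was called with the lines averaged (log2 fold change -1.21 ± 0.18, edgeR adjusted p = 0.0116), in Vav-Cre (-1.41 ± 0.24, 0.0376) and in Mx1-Cre libraries (-1.01 ± 0.21, 0.0337). Its averaged call was lost without wild type 2 (0.0551) or wild type 3 (0.0583). The Vav-Cre call was lost without Mx1-Cre 1 or any Vav-Cre or wild type library (0.0653 to 0.148), and the Mx1-Cre call without Mx1-Cre 1 or 3 or any wild type library (0.0617 to 0.124). Cd63, a tetraspanin gene of granule membranes, fell in Mx1-Cre libraries (-0.62 ± 0.14, edgeR adjusted p = 0.0428), a call lost without any Mx1-Cre or wild type library (0.0594 to 0.200). The abundant proteoglycan gene Srgn and the growth factor gene Angpt1 were not called, each with an averaged log2 fold change of 0.16.

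Of 27 regulators of megakaryocyte formation, all tested, Gfi1b and Fhl1 were among those called lower with the lines averaged, and Stat5b was called higher. Gfi1b, which encodes a zinc finger repressor needed for megakaryocytes and red cells, had 151 and 154 CPM in Vav-Cre, 162, 219.5 and 265 CPM in Mx1-Cre, and 281, 299.6 and 311 CPM in wild type libraries. Every knockout library lay below every wild type library (averaged log2 fold change -0.71 ± 0.15, edgeR adjusted p = 0.0341, lost without any Vav-Cre or wild type library at 0.0672 to 0.159).

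Fhl1, which encodes a LIM domain protein, had an averaged log2 fold change of -0.91 ± 0.20 (edgeR adjusted p = 0.0435), a call kept without Vav-Cre 2, Mx1-Cre 2 or Mx1-Cre 3 and lost without any other library (0.0715 to 0.181). Stat5b, which encodes a transcription factor activated by cytokine receptors, had 177 and 189 CPM in Vav-Cre, 199, 175 and 169.7 CPM in Mx1-Cre, and 134, 131 and 123 CPM in wild type libraries. It was higher in each knockout library (averaged log2 fold change 0.49 ± 0.11, edgeR adjusted p = 0.0435), a call kept without Mx1-Cre 2 or 3 and lost without any other library (0.0545 to 0.228). Gata1, named after its values were seen because its binding words were searched above, had 57.5 ± 1.03 CPM in Vav-Cre, 108 ± 21.4 CPM in Mx1-Cre and 110 ± 12.4 CPM in wild type libraries (SD, n = 2, 3 and 3). Its Vav-Cre log2 fold change was -0.94 and did not pass (edgeR adjusted p = 0.0556). Of 28 genes of platelet cytoskeleton and signalling, 27 were tested, and 1 was called: Tuba8, an alpha tubulin gene, rose in Mx1-Cre libraries (0.79 ± 0.15, edgeR adjusted p = 0.0264). That call was lost without Mx1-Cre 1 or 3 or any wild type library (0.0658 to 0.136). Among the most abundant genes of these lists, the following were not called: the averaged log2 fold change was -0.04 for the homeobox gene Meis1, 0.26 for Tln1 and 0.08 for Fermt3, which encode the integrin activators talin 1 and kindlin 3.

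**Figure D4:**
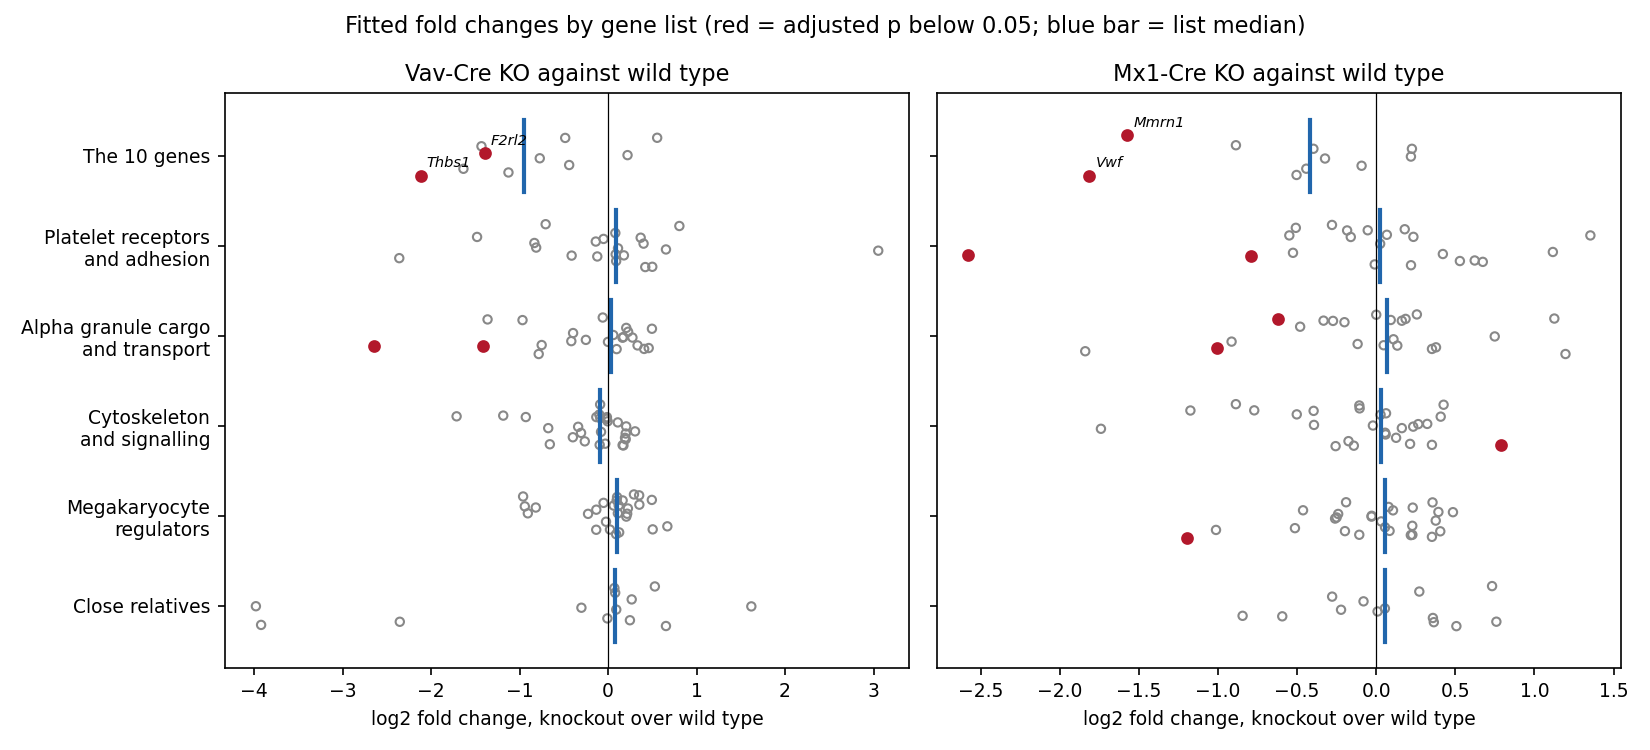
Log2 fold change against wild type (horizontal axis) of the 10 genes and of the 5 lists around them (rows), in Vav-Cre (left) and Mx1-Cre libraries (right), each point a tested gene, red where the edgeR adjusted p is below 0.05, with the list median as a blue bar. The medians of the 10 genes, -0.95 and -0.42, lie left of those of the other lists, which sit near 0.

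Endothelium and other marrow cells also express several of the 10 genes, Vwf, Mmrn1 and Thbs1 among them, so their marker levels are given beside these results. The summed level of 14 endothelial genes was 212 and 211 CPM in Vav-Cre, 206 to 220 CPM in Mx1-Cre and 257 to 333 CPM in wild type libraries. It was carried by Tek, Tie1, Egfl7 and Emcn, which stem cells also express. Of the other listed genes, Cdh5, Plvap and Flt1 were at most 0.492, 0.249 and 0.589 CPM. Kdr averaged 1.21 CPM in Vav-Cre, 1.405 CPM in Mx1-Cre and 3.74 CPM in wild type libraries, and Stab2 averaged 0.651 CPM in Vav-Cre, 0.690 CPM in Mx1-Cre and 2.06 CPM in wild type libraries. Of the 11 endothelial genes tested, 8 had a negative log2 fold change in Vav-Cre (median -0.23) and 11 in Mx1-Cre libraries (median -1.19). By edgeR 0 were called. An edgeR unadjusted p under 0.05 was found for 2 in Vav-Cre and 4 in Mx1-Cre libraries, where 13.4% and 16.6% of tested genes had one. With the lines averaged 10 of the 11 were negative (median -0.71). Of them 5 had an edgeR unadjusted p under 0.05, where 16.5% of tested genes did, and 3 lay below wild type without overlap, where 7.28% did. The summed level of 10 stromal genes was 49.4 and 31.5 CPM in Vav-Cre, 25.1 to 48.0 CPM in Mx1-Cre and 80.2 to 96.0 CPM in wild type libraries, led by the proteoglycan gene Bgn. Bgn alone had 24.3 to 38.6 CPM in Vav-Cre, 16.2 to 20.3 CPM in Mx1-Cre and 65.2 to 73.7 CPM in wild type libraries. Of the 6 stromal genes tested, 5 had a negative log2 fold change in Vav-Cre (median -1.58). In Mx1-Cre libraries 3 were negative and 3 positive (median 0.22). EdgeR called 1 of the 6 lower in Mx1-Cre libraries and 1 lower with the lines averaged, where 2.10% of tested genes were in each. The summed level of 8 monocyte and macrophage genes was 48.2 and 50.8 CPM in Vav-Cre, 50.9 to 56.1 CPM in Mx1-Cre and 59.4 to 102 CPM in wild type libraries. Of these, 7 had a negative log2 fold change in each line, with a median of -2.06 in Vav-Cre, -0.73 in Mx1-Cre and -1.57 with the lines averaged, where edgeR called 1 lower. The sum of 8 B cell genes was 73.7 and 35.8 CPM in Vav-Cre, 55.7 to 71.9 CPM in Mx1-Cre and 65.6 to 87.3 CPM in wild type libraries. That of 9 T and NK cell genes, nearly all Nkg7, was 53.2 and 90.1 CPM in Vav-Cre, 88.2 to 123 CPM in Mx1-Cre and 104 to 167 CPM in wild type libraries. The endothelial, stromal and monocyte sums were thus lower in every knockout library than in any wild type library, as was the sum of the 10 genes. In the stromal sum this separation rested on Bgn, and in the sum of the 10 genes on Mmrn1. The rest of the stromal list did not separate the groups. The part of these marker levels in the results was not tested. Of 14 erythroid genes, which share GATA1 and Gfi1b with megakaryocytes, the sum was 112 and 195 CPM in Vav-Cre, 282 to 405 CPM in Mx1-Cre and 264 to 328 CPM in wild type libraries, and the 4 globin genes of the list had 0 counts in all libraries.

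The genes whose level over the 8 libraries was most like that of Vwf and of Mmrn1, by Pearson's r on log2 CPM among 9583 genes, are given as a description; the libraries share the group differences, so high values of r are common. For Vwf they were Mpzl1 (r = 0.990), Clu (0.972), Hist1h1c (0.971), Hps3 (0.969) and Slc35b3 (0.964). Mpzl1 had 19.8 ± 10.1 CPM in Vav-Cre, 12.7 ± 2.35 CPM in Mx1-Cre and 34.9 ± 3.86 CPM in wild type libraries (SD, n = 2, 3 and 3). For Mmrn1 they were Nmnat3 (r = 0.994), Serpinb6b (0.978), Afap1l1 (0.978), Csf3r (0.975) and Il6st (0.974). Csf3r, the receptor gene of granulocyte colony-stimulating factor, had 27.6 ± 16.2 CPM in Vav-Cre, 14.2 ± 3.88 CPM in Mx1-Cre and 69.9 ± 21.0 CPM in wild type libraries.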

How the data were processed

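RNA-seq was read from 8 libraries, grouped by their titles (2 Vav-Cre, 3 Mx1-Cre, 3 wild type). Per the labels' protocols, cDNA was made from sorted cells with a low-input SMARTer kit and libraries with NEBNext, unstranded. The tools named in the submitters' processing notes are TopHat, SAMtools, HTSeq and edgeR, and the build is mm9; the annotation is not given in the sources used here. The authors deposited raw counts per gene symbol, used for every main test, and CPM of 12457 genes, used for an alternative.

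Tests on the counts used edgeR 4.0.16 under R 4.3.3 (filterByExpr, minimum count 10 and total 15, which kept 14086 genes; TMM; quasi-likelihood test in 1 model over 8 libraries with group as the only term). Each line was set against wild type, as was the mean of the lines (equal weights), and Vav-Cre was set against Mx1-Cre. P-values were adjusted by Benjamini-Hochberg across every tested gene, and a gene was called below 0.05. SE is the absolute log2 fold change over the square root of F, and intervals are at 95%. Levels are TMM-scaled CPM, mean ± SD; CPM per kb used GENCODE exon lengths. Pattern likeness used log2 CPM with a prior count of 2 over genes of mean log2 CPM of at least 3.

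The 10 genes, the lists and the tests were chosen with earlier results of these data known, so no list got a test or an adjustment of its own. Named genes were the 10, each listed gene that was called, the 2 most abundant genes of each list, and the 5 genes most like Vwf and Mmrn1; Slamf1, Gata1, Gp1ba, Selp and the other marker genes named were chosen after their values were seen. The results of 2 genes that this rule names are not reported here. The calculations were tested on simulated data. Libraries of a group correlated at r = 0.954 to 0.978, and no library was treated as a duplicate. Alternatives were DESeq2 1.42.0, its size factors in edgeR, library totals only, no filter, a filter of 1 CPM in 3 libraries, limma 3.58.1 (voom with quality weights, and trend on log2 of the authors' CPM plus 1 or 0.5), a fit of the compared groups alone, a threshold of 0.1, a replicate block, and removal of libraries in turn.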

Additional observations from a re-analysis of the deposited data

Results flagged for a closer look

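Slamf1, the gene of the sorted antigen CD150, differed between the knockout lines in the test of that difference itself. It was chosen after its values were seen. It was higher in Vav-Cre libraries, at 105 and 108 CPM, than in Mx1-Cre libraries, at 49.0, 53.6 and 58.1 CPM, by 0.99 on the log2 scale (edgeR adjusted p = 0.0346). With a replicate block the difference was 1.03 (adjusted p = 0.111) and with the compared groups alone 0.99 (adjusted p = 0.166). The call was lost without any Mx1-Cre or wild type library (edgeR adjusted p = 0.0504 to 0.104). It did not hold without Vav-Cre 2 either, where the log2 difference was 0.97 and a single Vav-Cre library remained. Slamf1 was not alone in this: of 12 genes of stem cell identity, Slamf1 included, edgeR called 2 higher in Vav-Cre than in Mx1-Cre libraries. The difference was positive for 11 of the 12.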

How the results depend on the processing

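Over the 56 fold changes, each recomputed under up to 19 other settings, 899 values kept their direction and side of the threshold, 102 no longer passed, 22 passed newly and 24 reversed. No call reversed. Other scalings moved the median of all genes by less than 0.1 on the log2 scale. Among the 10 genes, leaving out libraries gave 0 to 4 calls with the lines averaged (3 with all), 0 to 2 in Mx1-Cre (2), 0 to 3 in Vav-Cre (2) and 0 to 2 between lines (0). DESeq2 gave 5, 2, 4 and 3. Without a filter Vav-Cre had 4, with voom 1, and between lines an adjusted p below 0.1 gave 1. Among the 120 others, leaving out libraries gave 0 to 10 with the lines averaged (7 with all), 1 to 9 in Mx1-Cre (6), 0 to 7 in Vav-Cre (2) and 0 to 5 between lines (0). DESeq2 gave 15, 14, 13 and 12. With voom the counts were 18 averaged, 26 in Mx1-Cre and 1 between lines. No filter gave 6 in Vav-Cre and 3 between lines, and the trend fit gave 6 in Vav-Cre at either pseudocount and 1 (pseudocount 1) or 3 (0.5) between lines. The groups compared only gave 10 in Mx1-Cre and 5 in Vav-Cre. An adjusted p below 0.1 gave 11 averaged, 6 in Vav-Cre and 3 between lines. The cause was not tested.

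Deviations of libraries with the same number correlated at r = -0.07 to 0.13 over 7 pairs, 1 of them above 0.1. Not every library correlated best with its own number, so the numbers were not taken as a pairing. The deviations of the 2 Vav-Cre libraries from their mean mirror each other, so pairs with Vav-Cre are not separate checks. A pairing is therefore not excluded. With a replicate block, calls among the 10 genes were 2 averaged, 1 in Mx1-Cre, 0 in Vav-Cre and 0 between lines, and among the others 5, 4, 1 and 0.

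The reversed fold changes were all uncalled; ranges are those with libraries left out in turn. Itgb3 averaged (0.08) became -0.18 by the trend fit at either pseudocount, -0.11 with voom and -0.17 with the block, and ranged from -0.73 without Vav-Cre 2 to 0.45; in Vav-Cre it ranged from -1.06 to 1.30 and between lines from -0.66 to 1.69. Gp5 averaged ranged from -0.36 to 0.087. In Mx1-Cre it became -0.063 with voom and ranged from -0.28 to 0.51. Itga2b ranged from -0.31 to 0.12 in Mx1-Cre, -1.33 to 0.045 in Vav-Cre and -1.24 to 0.14 between lines. Gp1bb between lines ranged from -0.83 to 0.17. Gp9 between lines (0.00) became -0.016 with DESeq2, -0.015 with its size factors and -0.020 with the block, and ranged from -0.060 to 0.070.

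Gp1bb (12 to 52 counts), Thbs1 (69 to 394) and Gp5 (104 to 293) had the lowest counts of the 10 genes, which limits their precision. Vwf averaged passed with DESeq2 (adjusted p = 0.000811), without a filter, with both limma fits and without Vav-Cre 2. Thbs1 did not pass with voom (0.0551 averaged and 0.156 in Vav-Cre). Mmrn1 in Vav-Cre passed with DESeq2 (0.00246) and without a filter (0.0493).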

Other observations

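Selp, which encodes the granule membrane adhesion molecule P-selectin, had 16.2 CPM in Vav-Cre 1 and 264 CPM in Vav-Cre 2, 28.5 to 56.1 CPM in Mx1-Cre libraries and 6.53 to 33.4 CPM in wild type libraries. It was chosen after its values were seen, and its averaged log2 fold change of 2.20 did not pass the test (edgeR adjusted p = 0.195).

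Of 17 close relatives of the 10 genes, 13 were tested and edgeR called 0 in each comparison. Before adjustment 4 had a p under 0.05 in Vav-Cre, 1 in Mx1-Cre, 4 with the lines averaged and 4 between the lines, where 13.4%, 16.6%, 16.5% and 13.3% of all tested genes did. The most abundant were F2r, the gene of thrombin receptor 1, and Itgb2, the leukocyte integrin beta chain gene. F2r had 222 ± 39.7 CPM in Vav-Cre, 352 ± 65.7 CPM in Mx1-Cre and 273 ± 29.2 CPM in wild type libraries (SD, n = 2, 3 and 3). F2rl3, the gene of thrombin receptor 4, had 58.4 ± 13.7 CPM in Vav-Cre, 75.2 ± 3.00 CPM in Mx1-Cre and 58.7 ± 9.55 CPM in wild type libraries. F2r, F2rl3 and Itgb2 had averaged log2 fold changes of 0.03, 0.18 and 0.50.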
